A study of Homo sapiens with 12 samples.

Results

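The genes described here encode 10 transcription factors of blood and mast cell development, GATA1, GATA2, MITF, TAL1, LMO2, SPI1, RUNX1, CEBPA, IKZF1 and MYB, and they were selected by their symbols among the 58381 genes of the expression tables. Polyadenylated RNA of HMC-1 cells, a line derived from human mast cell leukaemia, was sequenced in 12 libraries, 3 for every subline. HMC-1.1 cells have the V560G substitution in KIT, the receptor for stem cell factor, and HMC-1.2 cells have V560G together with D816V. HMC-1.3 clone 1 and HMC-1.3 clone 2 are each a single-cell clone of HMC-1.2 in which V560G was reverted with CRISPR/Cas9, which left D816V alone. No group was treated, all were grown in the same serum-containing medium, and the replicates of a group were wells plated side by side, so the p-values below measure the spread between parallel wells. Loss of V560G, the editing procedure and the selection of a clone cannot be told apart within either clone, and HMC-1.1 is a subline with its own history.

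Total counts per library ranged from 29225900 to 43181402, and the lowest count of any of these 10 genes in any library was 330, for LMO2. All 10 passed the filter on low counts, which kept 15944 genes. Among defining mast cell genes, KIT was listed at 346.09 to 468.92 FPKM (fragments per kilobase of transcript, scaled to library size) and histidine decarboxylase (HDC) at 813.98 to 1037.24 FPKM over the 12 libraries. Tryptase (TPSAB1) was listed at 573.39 to 606.74 FPKM in HMC-1.2 and 27.56 to 45.23 FPKM elsewhere. Some mast cell markers were low, with the IgE receptor chain genes FCER1A and MS4A2 at no more than 1.27 FPKM and 0.45 FPKM in any library and chymase (CMA1) at no more than 0.15 FPKM. The libraries labelled as resent (HMC-1.2 replicate 1, clone 1 replicate 3 and clone 2 replicate 1) were kept, and a term for them in the model left the number of these 10 genes that were called as it was in all 6 comparisons.

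Blood cell identity depends on combinations of transcription factors. GATA2 maintains stem and progenitor cells and is retained in mast cells, where it acts on KIT, the tryptase genes and the carboxypeptidase gene with the basic helix-loop-helix zipper factor MITF, while GATA1 drives red cell and megakaryocyte differentiation and is also expressed in mast cells. TAL1 binds E-boxes and is joined to GATA factors through the adaptor LMO2. PU.1, the product of SPI1, and C/EBPα, the product of CEBPA, direct myeloid differentiation, and C/EBPα favours granulocytes and basophils over mast cells. RUNX1 starts definitive haematopoiesis, IKZF1 encodes Ikaros, a factor of lymphoid development, and MYB sustains the proliferation of immature progenitors.

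The promoter windows of the only members that were called in the comparisons with HMC-1.2, CEBPA and MYB, are shown so that the letters around their starts can be read beside the values. Each window is the RefSeq sequence (GRCh38.p14) from 250 bases before to 50 bases after the annotated start. CEBPA lies on chr19:33302485-33302784, minus strand, and MYB on chr6:135181058-135181357, plus strand. Capitals mark the GC box (GGGCGG, or CCGCCC on the other strand), the TATA box (TATAAA) in CEBPA and the E2F core (TTTGGCG) in MYB.
CEBPA: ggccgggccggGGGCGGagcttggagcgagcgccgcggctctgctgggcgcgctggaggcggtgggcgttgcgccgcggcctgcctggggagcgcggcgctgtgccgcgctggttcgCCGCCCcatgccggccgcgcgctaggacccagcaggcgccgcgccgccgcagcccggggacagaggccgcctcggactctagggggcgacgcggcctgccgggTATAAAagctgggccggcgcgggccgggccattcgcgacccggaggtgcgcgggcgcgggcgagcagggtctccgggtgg
MYB: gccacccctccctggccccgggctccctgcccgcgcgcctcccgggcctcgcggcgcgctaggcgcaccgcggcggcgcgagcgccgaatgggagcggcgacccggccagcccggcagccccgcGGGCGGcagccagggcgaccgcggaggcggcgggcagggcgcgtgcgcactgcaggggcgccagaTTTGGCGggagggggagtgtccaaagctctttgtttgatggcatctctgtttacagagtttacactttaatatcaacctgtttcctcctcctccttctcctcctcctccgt

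The CEBPA window was 80.7% G and C and the MYB window 71%, against a median of 58.7% over 35116 human promoter windows. The TATA box of CEBPA began at -30 relative to the start, and 11.5% of all windows hold these letters on either strand. In MYB the E2F core began at -61, and 1.92% of all windows hold it. A GC box was found in 45% of all windows, and CEBPA held 2 of them and MYB 1. Windows were at hand for 8 of the 10 genes, 14 windows in all, and 9 of the 14 held a GC box. The E-box bound by MITF (CACGTG) was found in 0 of the 14 and in 7.26% of all windows. The core of GATA sites (GATAA) was found in 3 of the 14 (22.7% of all windows) and that of PU.1 sites (GAGGAA) in 6 (27.9%), 1 of them in MYB, where it is not capitalised. Such matches describe letters and not bound sites.

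All 10 genes were expressed in every library, and GATA2 was the highest of them per length of transcript. On the FPKM scale GATA2 ranged from 211.68 to 246.61 over the 12 libraries, GATA1 from 154.99 to 190.95, SPI1 from 99.30 to 118.52 and IKZF1 from 88.75 to 111.09. MYB, TAL1 and RUNX1 formed a middle tier, with means over the 12 libraries of 75.6, 75.3 and 55.4 FPKM. MITF averaged 21.3 FPKM, CEBPA 11.5 FPKM and LMO2 9.24 FPKM. The summed FPKM of the 10 genes stayed between 832 and 892 in every library. The ratio of the highest to the lowest library was 6.44 for CEBPA and 2.19 for MYB, and it was between 1.17 (GATA2) and 1.84 (LMO2) for the other 8 genes.

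**Figure D1:**
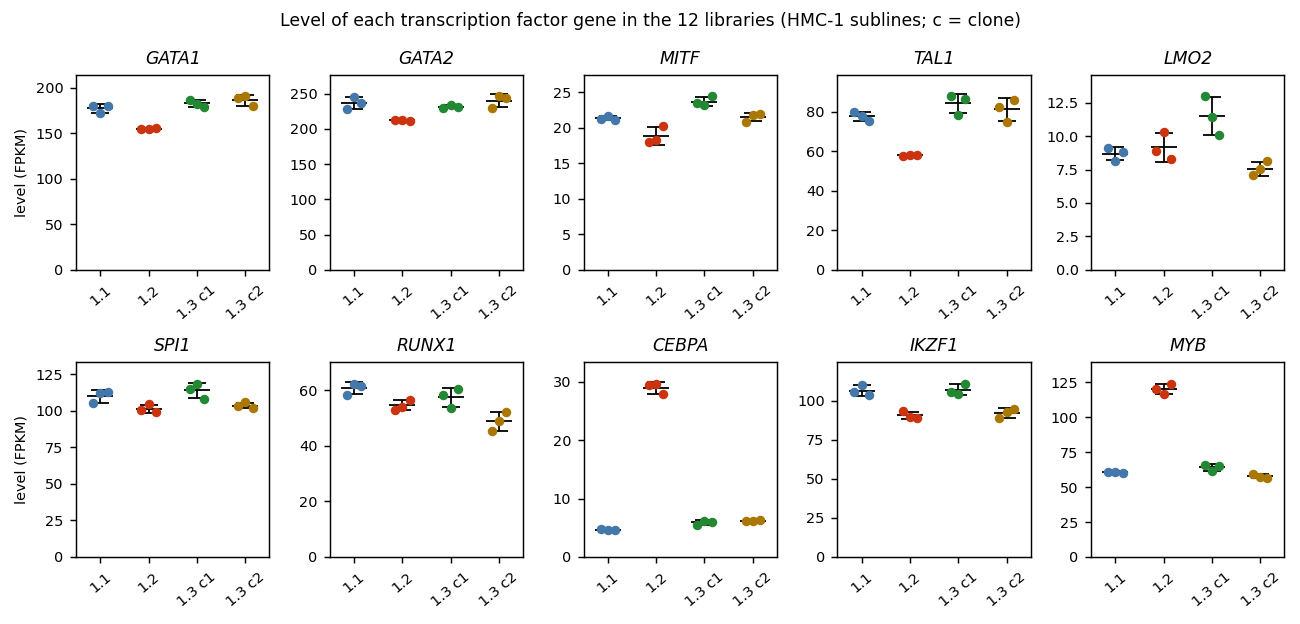
FPKM of each of the 10 genes (vertical axes, starting at 0) in the 12 libraries, grouped by subline on the horizontal axes (1.3 c1 and 1.3 c2 are HMC-1.3 clone 1 and clone 2). Points are libraries, and bars are the mean and SD of 3 libraries. CEBPA and MYB stand out in HMC-1.2, with 27.84 to 29.70 FPKM and 116.35 to 124.03 FPKM, while the highest and lowest libraries of the other genes are 1.17-fold (GATA2) to 1.84-fold (LMO2) apart.

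CEBPA and MYB fell in each comparison with HMC-1.2, and none of the 10 genes rose past the threshold. A gene was called when the p-value of edgeR's quasi-likelihood test, adjusted over all 15944 genes, was under 0.05 and the fold change over 1.5. By this rule 2 of 10 were called in clone 1 against HMC-1.2 (20% of all genes tested were called), 2 of 10 in clone 2 against HMC-1.2 (16.5%) and 2 of 10 when HMC-1.1 was compared with HMC-1.2 (17.6%). The share of these 10 genes that was called was therefore near that of the background. In bulk RNA a lower level per cell and fewer cells that express a gene cannot be told apart. All 3 comparisons use the same HMC-1.2 libraries, so they are not separate evidence. At the adjusted p alone, without a minimum fold, 9 of 10 passed in clone 1 (59.4% of all genes), 8 of 10 in clone 2 (48.5%) and 8 of 10 in HMC-1.1 (53.7%). By edgeR on the counts, the other 8 genes differed from HMC-1.2 by -0.32 to 0.39 on the log2 scale, which is at most 1.31-fold. Over 23 alternative analyses the largest of these differences was 0.54, for TAL1 in clone 1, closer to the fold threshold but still under it.

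CEBPA encodes C/EBPα, a basic leucine zipper factor required for granulocyte formation. Its gene (ENSG00000245848.2) is a single-exon gene at chr19:33299934-33302534 on the minus strand. In HMC-1.2 it was listed at 29.45, 29.70 and 27.84 FPKM. HMC-1.1 had 4.85, 4.61 and 4.65 FPKM, clone 1 had 5.5, 6.23 and 6.04 FPKM, and clone 2 had 6.08, 6.19 and 6.34 FPKM. Every HMC-1.2 library was thus far above every other library, and no group overlapped with HMC-1.2. The fall was 5.09-fold in clone 1 (log2 fold change -2.35, SE 0.05, edgeR adjusted p 5.5e-16), 4.76-fold in clone 2 (-2.25, SE 0.05, adjusted p 8.4e-16) and 6.34-fold in HMC-1.1 (-2.67, SE 0.05, adjusted p 1.7e-16). In clone 1, 97.2% of the genes tested changed by less. Over 23 alternative analyses the log2 fold change stayed between -2.40 and -2.12 in clone 1.

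HMC-1.1 held the least CEBPA. Clone 1 was above HMC-1.1 by 0.32 on the log2 scale (SE 0.06, edgeR adjusted p 0.0016) and clone 2 by 0.41 (SE 0.06, adjusted p 3.6e-05), both under the 1.5-fold threshold, and neither clone overlapped with HMC-1.1. The clones did not differ detectably from each other (log2 difference -0.09, 95% interval -0.22 to 0.03, adjusted p 0.19), and their FPKM values overlapped.

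MYB encodes the DNA-binding protein c-Myb. The gene (ENSG00000118513.18) spans chr6:135181308-135219173 on the plus strand. HMC-1.2 libraries had 120.15, 116.35 and 124.03 FPKM of MYB. In HMC-1.1 the values were 60.97, 60.87 and 59.93 FPKM, clone 1 gave 66.10, 61.13 and 65.00 FPKM, and clone 2 gave 59.32, 57.00 and 56.74 FPKM. As with CEBPA, HMC-1.2 stood alone, and the 9 remaining libraries lay between 56.74 and 66.10 FPKM. MYB fell 1.97-fold in clone 1 (log2 fold change -0.98, SE 0.03, edgeR adjusted p 1.4e-13), 2.14-fold in clone 2 (-1.1, SE 0.03, adjusted p 3.2e-14) and 2.04-fold in HMC-1.1 (-1.03, SE 0.03, adjusted p 7.3e-14). Clone 1 held slightly more MYB than clone 2 (log2 difference 0.12, SE 0.03, adjusted p 0.0056), and their libraries did not overlap. Neither clone differed detectably from HMC-1.1, with adjusted p of 0.29 for clone 1 and 0.12 for clone 2.

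**Figure D2:**
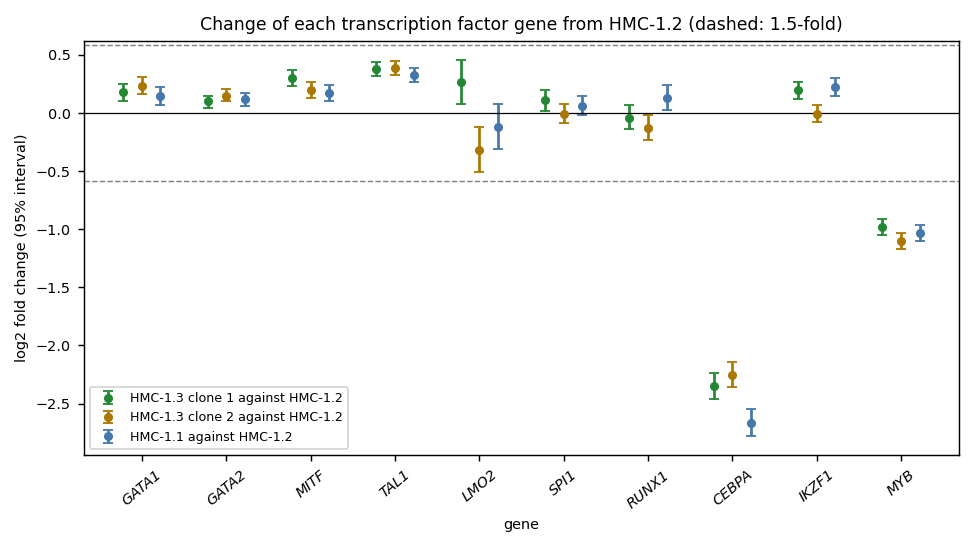
Log2 fold change from HMC-1.2 (vertical axis) of each of the 10 genes (horizontal axis) in clone 1, clone 2 and HMC-1.1, with 95% intervals from the edgeR fit of 3 libraries a group. Dashed lines mark 1.5-fold. Only CEBPA (-2.67 to -2.25) and MYB (-1.1 to -0.98) lie beyond them.

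GATA1 and GATA2, zinc finger factors that bind the same core sequence, were both slightly lower in HMC-1.2 than in the other sublines. GATA1 (chrX:48786540-48794311, plus strand) was listed at 155.40, 154.99 and 155.49 FPKM in HMC-1.2 and at 172.23 to 190.95 FPKM in the 9 other libraries. Relative to HMC-1.2 it was higher by 0.18 in clone 1 (SE 0.03, edgeR adjusted p 0.00029), 0.23 in clone 2 (adjusted p 2.9e-05) and 0.15 in HMC-1.1 (adjusted p 0.0017) on the log2 scale. These are differences of 1.11-fold to 1.17-fold, under the threshold, although no library of another group reached down to HMC-1.2. GATA1 did not differ detectably among clone 1, clone 2 and HMC-1.1, whose FPKM ranges overlapped. For GATA2 (chr3:128479427-128493201, minus strand) the HMC-1.2 libraries had 212.53, 213.38 and 211.68 FPKM and the other libraries 228.08 to 246.61 FPKM. GATA2 was higher than in HMC-1.2 by 0.10, 0.15 and 0.12 on the log2 scale for clone 1, clone 2 and HMC-1.1 (SE 0.03 each, edgeR adjusted p 0.0039, 9.9e-05 and 0.0011).

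Within libraries, the ratio of GATA2 to GATA1 on the FPKM scale was 1.37 ± 0.0077 for HMC-1.2 (mean and SD, n = 3), 1.34 ± 0.083 for HMC-1.1, 1.27 ± 0.031 for clone 1 and 1.29 ± 0.072 for clone 2. GATA2 was the higher of the pair in every library. GATA2 over SPI1, the factor that opposes GATA function in myeloid cells, was 2.1 ± 0.049 for HMC-1.2, 2.16 ± 0.048 for HMC-1.1, 2.04 ± 0.087 for clone 1 and 2.32 ± 0.083 for clone 2. These ratios are a description and were not tested.

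TAL1 and LMO2 work in the same complex but did not follow each other. TAL1 (chr1:47216290-47232225, minus strand) was lowest in HMC-1.2, with 57.86, 58.05 and 58.23 FPKM, against 74.99 to 87.93 FPKM in the 9 other libraries. On the log2 scale of the counts it was higher by 0.38 in clone 1 (SE 0.03, edgeR adjusted p 3.6e-09), 0.39 in clone 2 (SE 0.03, adjusted p 3.5e-09) and 0.33 in HMC-1.1 (SE 0.03, adjusted p 3.1e-08). These were the largest of the differences under the threshold, and no library overlapped with HMC-1.2. They depended on the scale, as mean TAL1 was 58 FPKM in HMC-1.2 and 84.3 FPKM in clone 1. Among 23 alternative analyses the clone 1 difference ranged from 0.36 to 0.54, and that of clone 2 from 0.38 to 0.48. Clone 1, clone 2 and HMC-1.1 overlapped in FPKM of TAL1 and did not differ detectably.

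LMO2 (chr11:33858576-33892076, minus strand), with the lowest mean FPKM of the 10 genes over 12 libraries but above CEBPA outside HMC-1.2, set the clones apart. It was listed at 13.00, 11.44 and 10.12 FPKM in clone 1 and at 7.07, 7.55 and 8.12 FPKM in clone 2. HMC-1.2 lay between them at 8.90, 10.34 and 8.26 FPKM, and HMC-1.1 had 9.14, 8.15 and 8.81 FPKM. Every clone 1 library was above every clone 2 library, while HMC-1.2 overlapped with clone 1 and with HMC-1.1. Relative to HMC-1.2, LMO2 differed by 0.27 in clone 1 (SE 0.09, edgeR adjusted p 0.014) and by -0.32 in clone 2 (SE 0.09, adjusted p 0.0089) on the log2 scale. Directly compared, clone 1 exceeded clone 2 by 0.59 (SE 0.09, 95% interval 0.40 to 0.78, adjusted p 3.5e-05). That difference passed the fold threshold narrowly, and it was the only call among the 10 genes between the clones (1 of 10, with 12.6% of all genes called). In 15 of 23 alternative analyses it was no longer called, with log2 differences of 0.52 to 0.66 over all 23.

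MITF, the basic helix-loop-helix zipper factor without which mast cells fail to mature, is encoded at chr3:69739456-69968336 on the plus strand. HMC-1.2 libraries had 18.03, 18.19 and 20.25 FPKM of MITF and HMC-1.1 libraries 21.15, 21.60 and 21.08 FPKM. Clone 1 had 23.42, 23.15 and 24.41 FPKM, and clone 2 had 20.85, 21.73 and 21.96 FPKM. In FPKM, HMC-1.2 was lowest and clone 1 highest, with HMC-1.1 and clone 2 overlapping between them. The log2 differences from HMC-1.2 were 0.30 in clone 1 (SE 0.03, edgeR adjusted p 6.4e-07), 0.20 in clone 2 (SE 0.03, adjusted p 9.4e-05) and 0.17 in HMC-1.1 (SE 0.03, adjusted p 0.00035). Clone 1 exceeded clone 2 by 0.10 (adjusted p 0.016). TFE3, a paralog that shares the binding site of MITF, was listed at 22.12 to 32.09 FPKM. FPKM of MITF was 0.845 ± 0.061 times that of TFE3 (SD, n = 3) in HMC-1.2, and the ratio was 0.742 ± 0.017 for HMC-1.1, 0.75 ± 0.036 for clone 1 and 0.905 ± 0.037 for clone 2. The related gene TFEC had 0 counts in all 12 libraries, where 3 counts would correspond to 0.0695 to 0.103 CPM.

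The myeloid factor SPI1 (chr11:47354860-47378547, minus strand) was the steadiest of the members that are not GATA genes. It was listed at 100.13, 104.44 and 99.30 FPKM in HMC-1.2 and at 101.94 to 118.52 FPKM elsewhere. The difference from HMC-1.2 passed the adjusted p in clone 1 only (log2 0.11, SE 0.04, edgeR adjusted p 0.032), and was -0.01 in clone 2 (adjusted p 0.92, and 0.03 with limma on FPKM) and 0.06 in HMC-1.1 (adjusted p 0.22). The clones themselves differed by 0.12 (adjusted p 0.028). SPI1 therefore did not share the fall of CEBPA, its companion in myeloid differentiation.

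IKZF1 (chr7:50304068-50405101, plus strand) separated the groups in pairs. In HMC-1.2 it was listed at 93.19, 89.62 and 89.13 FPKM and in clone 2 at 88.75, 92.61 and 95 FPKM. HMC-1.1 had 105.8, 110.22 and 103.56 FPKM and clone 1 had 105.84, 104.19 and 111.09 FPKM. The libraries of HMC-1.1 and clone 1 were all above those of HMC-1.2 and clone 2, and within each pair the ranges overlapped. IKZF1 was higher than in HMC-1.2 by 0.20 in clone 1 (SE 0.04, edgeR adjusted p 0.00015) and by 0.22 in HMC-1.1 (adjusted p 5.6e-05), and it exceeded clone 2 by 0.21 in clone 1 (adjusted p 0.00014).

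RUNX1 (chr21:34787801-36004667, minus strand) was highest in HMC-1.1, at 58.29, 62.40 and 61.39 FPKM, and lowest in clone 2, at 45.26, 48.92 and 52.17 FPKM. HMC-1.2 had 53.05, 54.05 and 56.48 FPKM and clone 1 had 58.22, 53.68 and 60.38 FPKM. In FPKM, neighbouring groups in this order overlapped except clone 2 and HMC-1.2. In counts scaled to library size, clone 2 overlapped with HMC-1.2, and clone 1 did not overlap with HMC-1.1. On the counts, RUNX1 differed from HMC-1.2 by 0.13 in HMC-1.1 (SE 0.05, edgeR adjusted p 0.034), by -0.13 in clone 2 (SE 0.05, adjusted p 0.048) and by -0.04 in clone 1 (adjusted p 0.55), where limma on FPKM gave 0.07. Clone 2 was lower than HMC-1.1 by 0.26 (log2 fold change -0.26, SE 0.05, adjusted p 0.00064).

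Set against HMC-1.1, none of the 10 genes was called in either clone, by edgeR, DESeq2 or limma. For clone 1, 1.01% of all genes tested were called, and 4 of the 10 passed the adjusted p alone, with 18.7% of all genes. For clone 2, 8.19% were called, and 3 of the 10 passed the adjusted p alone, with 36.0% of all genes. At an unadjusted p under 0.05 the counts were 4 and 6 of the 10. The share of all genes at an unadjusted p was not computed, so these counts have no background beside them. The largest differences of the 10 genes from HMC-1.1 were 0.41 for CEBPA in clone 2 and 0.39 for LMO2 in clone 1, on the log2 scale. Between the clones, 5 of 10 passed the adjusted p alone, against 50.2% of all genes, and each of the 5 (MITF, LMO2, SPI1, IKZF1 and MYB) was higher in clone 1.

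The median gene next to CEBPA or MYB on the chromosome stayed close to its level in HMC-1.2, although single neighbours were called. Over the 10 tested genes on either side of CEBPA the median log2 fold change from HMC-1.2 was 0.10, -0.02 and 0.08 for clone 1, clone 2 and HMC-1.1. CEBPG, a relative that starts 71.2 kb away, differed by 0.59, -0.35 and 0.27 in the same order and was called in clone 1. Among these neighbours CHST8, a sulfotransferase gene named here after its values were seen, had the lowest values, with -2.50, -0.91 and -1.84. In each of the 3 comparisons 1 neighbour of CEBPA was called lower, and 3, 1 and 1 were called higher. For MYB the medians of the neighbours were 0.10, 0.07 and 0.07. Of these neighbours 1 was called lower in clone 1 and 0 in clone 2 and HMC-1.1, while 3, 1 and 2 were called higher. In clone 2 the lowest of them was at -1.59, below MYB itself but not called, and the highest at 1.57. CEBPA and MYB had 20 such neighbours each, and 20%, 16.5% and 17.6% of all genes tested were called in the 3 comparisons. HBS1L, whose start lies at -78.3 kb from that of MYB, differed by -0.11, -0.11 and -0.06.

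**Figure D3:**
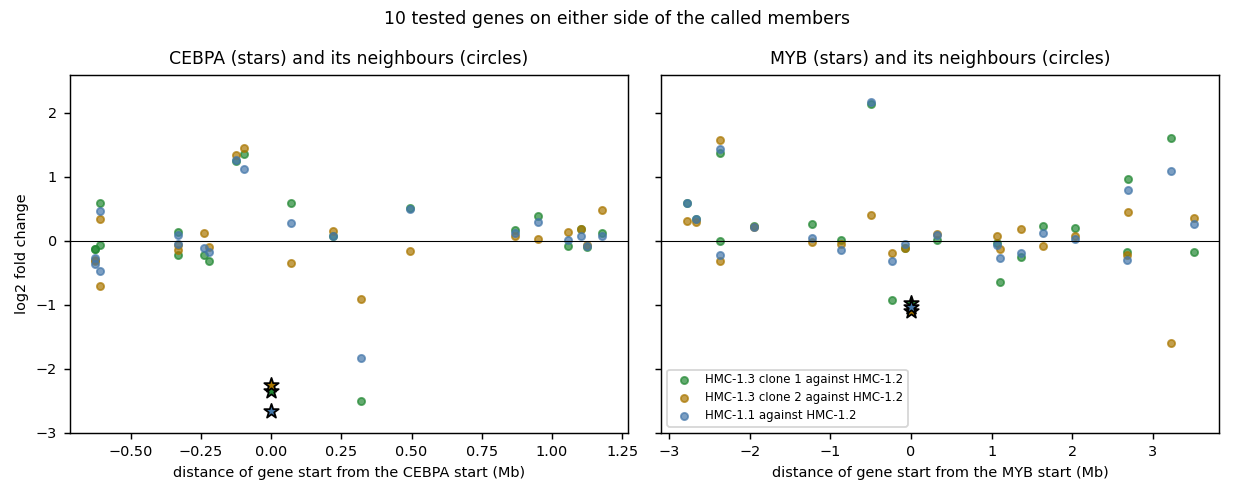
Log2 fold change from HMC-1.2 (vertical axis) of CEBPA (left) and MYB (right), shown as stars at 0, and of the 10 tested genes on either side of each (circles), by distance of the gene starts in Mb (horizontal axis). Colours are the 3 comparisons, each of 3 libraries against 3. Most circles lie near 0, with medians of -0.02 to 0.10, whereas the stars lie at -2.67 to -0.98.

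Genes annotated within the same spans held few reads. For CEBPA, the antisense transcripts CTD-2540B15.11 and CTD-2540B15.7 had at most 1 and 9 counts in any library. GATA2 overlaps the antisense transcript RP11-475N22.4, which had 759 to 1193 counts and differed from HMC-1.2 by -0.04, 0.11 and -0.07 in clone 1, clone 2 and HMC-1.1. The library kit keeps strand, but whether counting used it is not stated, so reads shared by GATA2 and this transcript may have been divided by estimate. The genes overlapping MITF, TAL1, LMO2, RUNX1, IKZF1 and MYB had at most 7 counts in any library.

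The genes whose profile over the 12 libraries was nearest to that of CEBPA were TNFAIP8, INPP5D and PDE9A, at root mean square distances of 0.14, 0.15 and 0.18 between centred log2 CPM (counts scaled to library size), among 13116 genes. INPP5D encodes the phosphatase SHIP1, and it differed from HMC-1.2 by -2.58, -2.12 and -2.55 in clone 1, clone 2 and HMC-1.1. The genes nearest to MYB were PDLIM7, RACK1 and PAFAH2, at distances of 0.05, 0.05 and 0.06. RACK1, a scaffold protein of the ribosome, differed by -1.0, -1.15 and -1.09. PDLIM7 (chr5:177483394-177497606) and RACK1 (chr5:181236897-181248096) both lie towards the end of the long arm of chromosome 5, and PAFAH2 lies on chromosome 1.

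Among relatives of the 10 genes more were called lower than higher, and calls over all genes were not split by direction for comparison. Of 22 family relatives 18 were tested, and against HMC-1.2 the calls were 1 higher and 3 lower in clone 1, 0 and 4 in clone 2, and 0 and 3 in HMC-1.1. The relatives called were 22.2%, 22.2% and 16.7% of those tested, near the 20%, 16.5% and 17.6% of all genes. At the adjusted p alone, 6 were higher and 6 lower in clone 1, 1 and 9 in clone 2, and 3 and 5 in HMC-1.1. The median log2 fold changes were -0.05, -0.14 and -0.04, beside 0.01, -0.00 and 0.01 over all genes tested. In the C/EBP family, CEBPE, a late granulocyte factor, fell in the same 3 comparisons (log2 fold changes -1.52, -2.31 and -1.36, edgeR adjusted p 0.007, 0.00063 and 0.014), at a level of no more than 1.05 FPKM in any library. CEBPB, at 36.8 ± 2.94 FPKM in HMC-1.2 (SD, n = 3), showed 53.7 ± 4.17 FPKM in clone 1 and 25.8 ± 1.17 FPKM in clone 2. Against HMC-1.2 CEBPB was not called (0.49, -0.55 and 0.07), whereas clone 1 exceeded clone 2 by 1.03 (SE 0.07, edgeR adjusted p 2.3e-09).

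IKZF2, the gene of the Ikaros relative Helios, fell in clone 1 (-1.3, SE 0.09, edgeR adjusted p 3.3e-09) and HMC-1.1 (-1.34, SE 0.09, adjusted p 2.7e-09). In clone 2 it was lower by less than the fold threshold (-0.45, SE 0.09, adjusted p 0.00048). LMO1, a relative of LMO2, was called lower in all 3 comparisons on very few counts, with 13, 16 and 9 in HMC-1.2 and 0 to 3 in every other library. LYL1, a TAL1 relative of haematopoietic cells, was abundant at 165.59 to 225.01 FPKM and differed by 0.19, -0.15 and -0.08. LMO4 (-0.74, adjusted p 2.9e-10) and RUNX2 (-1.56, adjusted p 0.042) were called lower in clone 2. GATA3 stayed at 0.64 to 1.18 FPKM and TFEB at 2.59 to 5.11 FPKM, with no call against HMC-1.2.

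Among partners of these factors, 19 of 20 were tested and the calls against HMC-1.2 were 0 higher and 2 lower in clone 1, 2 and 3 in clone 2, and 1 and 3 in HMC-1.1. Partners called in clone 2 and HMC-1.1 were 26.3% and 21.1% of those tested, against 16.5% and 17.6% of all genes. In clone 1 the 2 calls among 19 partners were a smaller share than the 20% of all genes. The median log2 fold changes were -0.08, -0.10 and 0.00. SSBP3, which stabilises the adaptor LDB1 in the TAL1 and LMO2 complex, fell by 1.06, 0.99 and 1.14 on the log2 scale (log2 fold changes -1.06, -0.99 and -1.14, edgeR adjusted p 1.8e-13, 4.2e-13 and 7e-14), from 69.5 ± 2.38 FPKM in HMC-1.2 (SD, n = 3) to 35.4 ± 0.975 in clone 1. LDB1 itself was at 36.86 to 41.91 FPKM in all libraries and was not called. ZFPM1, the gene of the GATA1 cofactor FOG1, fell in all 3 (-0.67, -0.77 and -1.07, adjusted p 7.9e-06, 2.1e-06 and 5e-08) at a low level of 1.17 to 2.98 FPKM. CBFB, the partner of RUNX1, differed by -0.25, -0.25 and -0.28 and was not called.

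GFI1B, a repressor active with GATA1 in red cell and megakaryocyte precursors, rose in clone 2 (0.76, SE 0.05, edgeR adjusted p 1.4e-09) and HMC-1.1 (0.71, SE 0.05, adjusted p 3.9e-09), and was 0.48 above HMC-1.2 in clone 1, under the threshold. RCOR1, a corepressor recruited by GFI1B, fell in clone 2 (-1.11, SE 0.04, adjusted p 1.1e-13), to 12.2 ± 0.179 FPKM from 26 ± 0.507 FPKM (SD, n = 3). Clone 1 exceeded clone 2 in RCOR1 by 1.28 (adjusted p 5.6e-14). TCF4, an E protein that pairs with TAL1, rose in clone 2 (0.67, adjusted p 1.8e-08) and differed by -0.02 in clone 1.

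Of 22 other blood transcription factors 18 were tested, and the calls against HMC-1.2 were 4 higher and 3 lower for clone 1, 2 and 0 for clone 2, and 3 and 3 for HMC-1.1, with medians of 0.07, 0.01 and 0.12. Those called were 38.9%, 11.1% and 33.3% of those tested, against 20%, 16.5% and 17.6% of all genes. KLF1, the erythroid Krüppel-like factor, rose by 1.72, 2.06 and 1.61 on the log2 scale (SE 0.21, 0.20 and 0.21, edgeR adjusted p 1.7e-06, 2e-07 and 5.1e-06), from 0.37 to 0.81 FPKM in HMC-1.2 to 1.92 to 3.19 FPKM elsewhere. EBF1, a B cell factor, rose from 0.69 ± 0.171 FPKM (SD, n = 3) by 1.13, 1.06 and 0.87. ID1, an inhibitor of E proteins, fell in clone 1 (-1.15, adjusted p 4e-06) and HMC-1.1 (-0.77, adjusted p 0.00022), and its relative ID3 was called higher in the same groups (1.0 and 0.71).

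**Figure D4:**
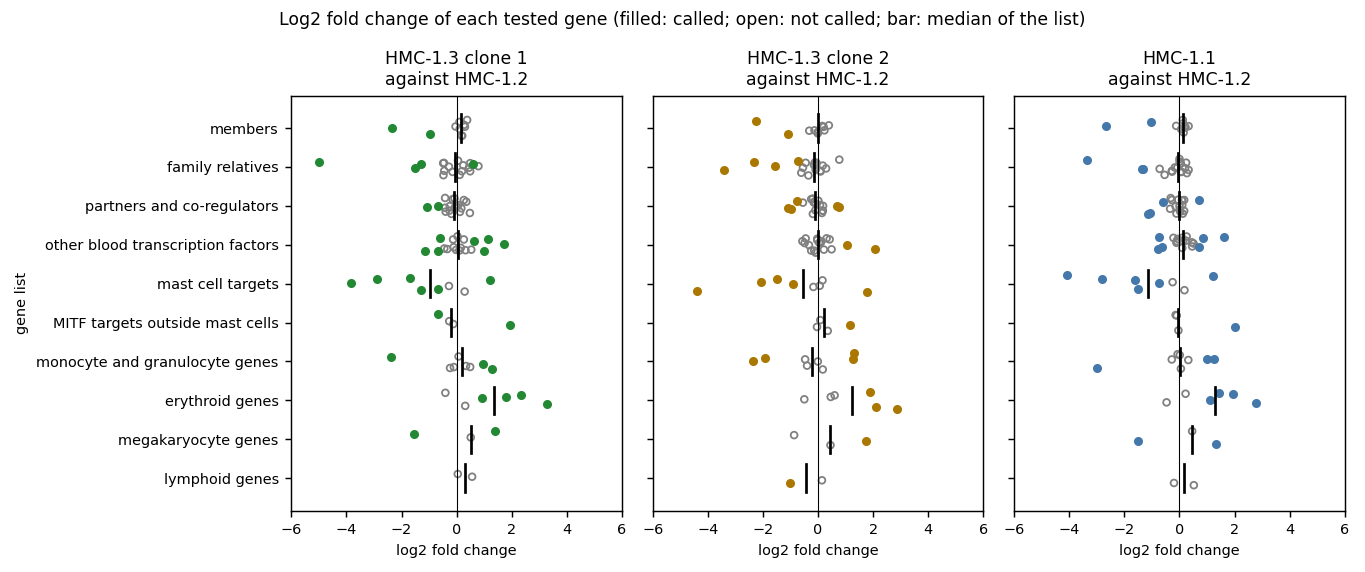
Log2 fold change from HMC-1.2 (horizontal axes) of every tested gene of the 10 transcription factors (top row, members) and of the lists of relatives, partners, targets and lineage genes (vertical axis) in clone 1, clone 2 and HMC-1.1. Filled points were called, open points were not, and black bars are list medians. The erythroid list lies to the right, with medians of 1.24 to 1.35, and the mast cell targets to the left, with medians of -1.13 to -0.55.

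Genes that GATA2 and MITF act on in mast cells fell more often than they rose. Of 10 such genes 8 were tested, with 1 called higher and 5 lower in clone 1, 1 and 4 in clone 2, and 1 and 5 in HMC-1.1, and medians of -0.99, -0.55 and -1.13. The targets called were 75%, 62.5% and 75% of those tested, against 20%, 16.5% and 17.6% of all genes. TPSAB1, which encodes the granule protease tryptase, was at 606.74, 595.53 and 573.39 FPKM in HMC-1.2 and at 27.56 to 45.23 FPKM in the 9 other libraries. It fell by 3.83, 4.41 and 4.07 on the log2 scale in clone 1, clone 2 and HMC-1.1 (log2 fold changes -3.83, -4.41 and -4.07, SE 0.04 to 0.05, edgeR adjusted p 1e-19, 3.5e-20 and 5.6e-20). TPSB2, a near-identical neighbour, fell by less (-1.3, -1.49 and -1.51), and since reads of these paralogs are divided by estimate, the split between them is uncertain. CPA3, the mast cell carboxypeptidase gene, rose instead, by 1.21, 1.78 and 1.2 (adjusted p 2.7e-09, 1.2e-11 and 3.5e-09). IL1RL1, the gene of the interleukin-33 receptor, fell in all 3 (-0.67, -0.92 and -0.75, adjusted p 1.1e-11, 1.9e-13 and 3.1e-12). KIT differed by 0.29, 0.16 and 0.18 and was not called. By edgeR on the counts, RNA of GATA2 and MITF was within 1.23-fold of HMC-1.2 in all 3 comparisons. Whether either factor bears on the changes of TPSAB1, CPA3 or the other targets was not tested.

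FCER1A distinguished the clones as well. It fell in clone 1 (-2.89, SE 0.35, edgeR adjusted p 2e-06) and HMC-1.1 (-2.83, SE 0.35, adjusted p 2.7e-06) and was 0.06 from HMC-1.2 in clone 2. Its levels were 0.12, 0.14 and 0.15 FPKM in clone 1 and 1.18, 0.94 and 1.15 FPKM in clone 2, close to the 1.08, 1.27 and 0.91 FPKM of HMC-1.2. MS4A2 fell in all 3 comparisons (-1.68, -2.07 and -1.61, adjusted p 0.0014, 0.00043 and 0.0021), from 0.23 to 0.45 FPKM in HMC-1.2.

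Several erythroid genes, a group of which many are bound by GATA1 and KLF1, were higher outside HMC-1.2. Only 6 of 14 were expressed enough to be tested, and 4, 3 and 4 of them were called higher for clone 1, clone 2 and HMC-1.1, with none called lower. These were 66.7%, 50% and 66.7% of those tested, against 20%, 16.5% and 17.6% of all genes. EPOR, the erythropoietin receptor gene, went the other way under the fold threshold (-0.41, -0.50 and -0.47, edgeR adjusted p 4.9e-05, 7.4e-06 and 1.5e-05). HBA2 did not differ detectably (0.31, 0.60 and 0.22, adjusted p 0.4, 0.1 and 0.57). HBD, the delta globin gene, was the most abundant, at 34.00, 31.40 and 35.11 FPKM in HMC-1.2, 57.58 to 67.91 FPKM in clone 1, 112.23 to 135.01 FPKM in clone 2 and 67.15 to 79.46 FPKM in HMC-1.1. It rose by 0.92, 1.88 and 1.12 on the log2 scale (SE 0.09, edgeR adjusted p 2.3e-07, 1.3e-11 and 2.1e-08). HEMGN, a GATA1 target of red cell precursors, rose by 3.28, 2.85 and 2.76, but only to 0.51 to 1.01 FPKM. HBB rose in all 3 comparisons from 5 to 9 counts in HMC-1.2, whereas HBG2 rose in clone 1 and HMC-1.1 and was 0.46 from HMC-1.2 in clone 2 (adjusted p 0.52). The summed FPKM of the list was 50.7 to 56.4 in HMC-1.2, 79.8 to 95.6 in clone 1, 130 to 157 in clone 2 and 85.4 to 103 in HMC-1.1. Globin genes are near copies of each other, so values of the less abundant members are uncertain.

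The lists of other lineages held few expressed genes. Of 16 monocyte and granulocyte genes 8 were tested, with 2 higher and 1 lower in clone 1 and HMC-1.1 and 2 and 2 in clone 2. For clone 1, clone 2 and HMC-1.1 these were 37.5%, 50% and 37.5% of those tested, against 20%, 16.5% and 17.6% of all genes. BTK, a kinase gene activated by PU.1, rose from 139.20 to 140.99 FPKM in HMC-1.2 to 337.59 to 361.94 FPKM elsewhere (log2 1.3, 1.25 and 1.26, SE 0.03, edgeR adjusted p 3.7e-16, 6.9e-16 and 5.6e-16). CYBB, an oxidase gene of phagocytes, rose by 0.94, 1.3 and 1.00. FCGR1A, which has close copies, fell in all 3 comparisons (-2.37, -2.38 and -3.01, adjusted p 6.5e-06, 8.4e-06 and 1.1e-06) and was at no more than 1.68 FPKM in any library. ITGB2, an integrin gene, fell in clone 2 (-1.93, adjusted p 3e-05), from 0.723 ± 0.159 FPKM in HMC-1.2 (SD, n = 3). The summed FPKM of the list was 283 to 289 in HMC-1.2 and 478 to 504 in the other libraries, where most of it was BTK. This sum therefore follows BTK and is not a measure of monocyte or granulocyte RNA. MPO and TLR4 had 0 counts in every library. Whether the levels of these genes bear on the 10 factors was not tested.

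For 9 megakaryocyte genes 3 were tested, of which TUBB1, a platelet tubulin gene, rose in all 3 comparisons (1.38, 1.74 and 1.32, edgeR adjusted p 7.2e-05, 6.3e-06 and 0.00014) at no more than 0.72 FPKM. GP6, a platelet collagen receptor gene, was called lower in clone 1 and HMC-1.1. The remaining tested gene, ITGA2B, was higher by 0.51, 0.45 and 0.46, under the threshold (SE 0.02, adjusted p 1.6e-11, 8.2e-11 and 8.4e-11). The list summed to 661 to 688 FPKM in HMC-1.2, where only 1 of its genes averaged at least 1 FPKM. Of 10 lymphoid genes 2 were expressed enough to be tested. Of 11 genes that MITF acts on in pigment cells and osteoclasts, 4 were tested. PMEL, a melanosome gene, rose by 1.95, 1.17 and 2.01 (adjusted p 9.9e-09, 1.2e-05 and 7.8e-09) from 0.72 to 1.3 FPKM in HMC-1.2, and CTSK, an osteoclast protease gene, was called lower in clone 1 (-0.67, adjusted p 0.011). TYR and MLANA were at 0 counts in every library.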

How the data were processed

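RNA of 12 HMC-1 libraries in 4 groups of 3 was sequenced from a stranded polyA protocol. Per the labels and the methods, the authors used Cutadapt 2.10 for trimming, STAR 2.5.3 for alignment to hg38 and Picard to mark duplicates, and estimated expected counts per gene with RSEM 1.3.0, and whether RSEM used strand is not given in the sources used here. The deposited FPKM values are the authors' scaling of those estimates by length and library size. Of the counts above 0, 20.5% were not whole, and they were rounded.

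The 10 genes and the lists were chosen with earlier results of these data known. The main test was edgeR 4.0.16 (R 4.3.3), quasi-likelihood, with TMM scaling (factors 0.974 to 1.024), filterByExpr, 12 libraries in 1 fit and Benjamini-Hochberg adjustment over 15944 genes. Calls needed an adjusted p below 0.05 with a change of more than 1.5-fold. Alternatives were DESeq2 1.42.0, limma 3.58.1 on log2(FPKM + 1) or log2(FPKM + 0.1), other filters and scalings, glmTreat, a block, a term for resent libraries and each library left out. On simulated counts for clone 1 against HMC-1.2 (15613 genes), 99 of 100 genes changed 2-fold and 100 of 100 changed 4-fold were called, with 3 false calls. The simulation gave every gene the same dispersion and changed only 200 genes above a minimum count. These figures therefore may not carry over to the real libraries.

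Named were the 10 genes, up to 5 genes of each list called against HMC-1.2 by size of change, a fixed set of relatives and partners (KIT, GATA3, TFE3, TFEB, TFEC, LYL1, LDB1, CBFB, ZFPM1 and CEBPB), genes overlapping the 10, and the 3 genes most like CEBPA and MYB. CEBPG, IL1RL1, HBS1L, CHST8, EPOR, HBA2 and ITGA2B fall outside this rule and were chosen after their values were seen. Marker genes at or near 0 were named beside their lists. Positions are from the Gencode 44 annotation of GRCh38, in which 99% of the identifiers were found, 58.8% of these in the same version. Total counts were 29225900 to 43181402 per library, and limits on counts of 0 cover counting error only. Some genes of the lists are not reported here.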

Additional observations from a re-analysis of the deposited data

Results flagged for a closer look

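For 5 of the 10 genes the change from HMC-1.2 differed between the clones when the difference itself was tested (edgeR, clone 1 minus clone 2, 3 libraries each). The log2 difference was 0.59 for LMO2 (adjusted p 3.5e-05), with every clone 1 library above every clone 2 library. It was 0.21 for IKZF1 (adjusted p 0.00014), whose clone 2 libraries overlapped with HMC-1.2. MYB differed by 0.12 (adjusted p 0.0056), although it fell in both clones. SPI1 differed by 0.12 (adjusted p 0.028) and MITF by 0.10 (adjusted p 0.016). In all 5 genes clone 1 was the higher clone, and 50.2% of all genes tested differed between the clones at this adjusted p.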

How the results depend on the processing

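Of 60 log2 fold changes (10 genes in 6 comparisons), each recomputed under 23 alternatives, 54 kept their sign throughout. Reversals concerned values close to 0. With limma on log2(FPKM + 1), with or without a filter, and on log2(FPKM + 0.1), RUNX1 in clone 1 against HMC-1.2 went from -0.04 to 0.07, SPI1 in clone 2 against HMC-1.2 from -0.01 to 0.03, IKZF1 in that comparison from -0.01 to 0.02 and in clone 1 against HMC-1.1 from -0.02 to 0.01, and TAL1 between the clones from -0.01 to 0.05. SPI1 was 0.00 without a filter on counts. With 1 library left out, RUNX1 ranged from -0.09 to 0.00, SPI1 from -0.02 to 0.02 and IKZF1 from -0.03 to 0.01 in those comparisons with HMC-1.2, and GATA1 in clone 1 against HMC-1.1 from -0.01 (without HMC-1.1 replicate 2) to 0.05. The cause was not tested.

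The number of the 10 genes that were called was the same under all 23 alternatives in 5 comparisons. Between the clones it was 1, for LMO2, and 0 with DESeq2, RLE factors, no filter, the replicate block, glmTreat and limma on log2(FPKM + 1) with and without a filter. It ranged from 0 to 1 with 1 library left out, and was 0 without HMC-1.1 replicate 1, 2 or 3, HMC-1.2 replicate 1 or 3, clone 1 replicate 1 or 2, or clone 2 replicate 1. The fold of LMO2 lies at the threshold, with log2 values from 0.52 to 0.66.

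Calls over all genes were 3193, 2630 and 2803 for clone 1, clone 2 and HMC-1.1 against HMC-1.2, 161 and 1306 for clone 1 and clone 2 against HMC-1.1, and 2013 between the clones. In the same order they were 1932, 1612, 1618, 9, 552 and 837 with glmTreat, 1911, 1451, 1520, 65, 571 and 977 with limma on log2(FPKM + 1), and 1907, 1457, 1511, 50, 550 and 943 without its filter. Against HMC-1.1 clone 1 had 101 calls and clone 2 had 870 on log2(FPKM + 0.1), and clone 1 had 95 with DESeq2 and 107 without clone 1 replicate 2.

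Replicate numbers showed at most weak pairing of the libraries. The 18 correlations between libraries of the same number were -0.04 to 0.1, and those of other numbers -0.11 to 0.08. After rounding, 0 of the 18 exceeded 0.1, and 6 of 12 libraries correlated best with their own number. With the replicate block CEBPA was -2.35, -2.25 and -2.66 and MYB -0.98, -1.1 and -1.03 in the 3 comparisons with HMC-1.2, and LMO2 between the clones was 0.58 (edgeR adjusted p 6.5e-05). The number of the 10 genes called stayed at 2, 2, 2, 0 and 0 in the other 5 comparisons. With 3 parallel wells a group, these tests do not cover variation between cultures or clones.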
